A study of Homo sapiens with 6 samples.

Results

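The CREB and CREB-like transcription factors are 10 genes of the 58721 in the count table: CREB5, ATF2 and ATF7, then CREB1, CREM and ATF1, then CREB3, CREB3L1, CREB3L2 and CREB3L4. They were chosen by family name after CREB5 had stood among the largest rises of R98W against WT in these same libraries. The values of that comparison are therefore given below as a description, without p-values for the 10 genes and with no support drawn from them. The polyA RNA came from A549, a widely used line derived from a human lung adenocarcinoma and grown in DMEM with serum. KAT8, a histone H4 lysine acetyltransferase, was overexpressed with the R98W substitution in 3 libraries (R98W) and as wild type in the other 3 (WT). All 6 libraries are labelled as KAT8 overexpression, and the labels give neither the vector nor whether a line was 1 clone or a pool, nor whether replicates were separate cultures. Where p-values are given, the spread behind them is that of these libraries alone and may be technical.

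These proteins carry a basic region followed by a leucine zipper and bind DNA as dimers, many of them at the cAMP response element (CRE). CREB1, CREM and ATF1 are switched on when protein kinase A or related kinases phosphorylate them and they recruit the acetyltransferases CREBBP and EP300 or the CRTC coactivators. ATF2, ATF7 and CREB5 share a stress-kinase branch, pair with JUN and respond to JNK and p38. CREB3 and its relatives are made as proteins of the endoplasmic reticulum membrane, are released by site-1 and site-2 proteases in the Golgi, and act on genes of secretion.

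The CRE is the palindrome TGACGTCA. Promoter windows of RefSeq (GRCh38.p14), running from 250 bases before to 50 after an annotated start, were found for 9 of the 10 genes, in 22 windows, and ATF2 had none in the table. The CRE was in windows of 2 of the 9 genes, CREM and CREB3L2, against 2.25% of 27305 genes with such windows and 3.63% of the 12688 of them that were tested. The shorter motif TGACG, read on both strands and contained in every CRE, was in windows of 4 of the 9 genes, which added CREB3 and ATF7, against 28.4% of all genes with windows and 38.6% of the tested ones. Per window, the CRE was in 13.6% of the 22 and in 1.85% of all 35116. Of the 3 member windows with a CRE, 2 are overlapping CREM windows that hold the same site. The shorter motif was in 27.3% of the 22 windows and in 24.6% of all 35116. The shares per gene do not allow for the number of windows of a gene. The 3 CREB5 windows all lie inside the annotated gene, its outermost start has no window in the table, and none of the 3 held either motif. The following windows are shown because CREM and CREB3L2 hold the full CRE and CREB5 is the member with the largest fold change, and the capitals mark the CRE.
CREM, a start inside the gene, chr10:35195652-35195951, + strand: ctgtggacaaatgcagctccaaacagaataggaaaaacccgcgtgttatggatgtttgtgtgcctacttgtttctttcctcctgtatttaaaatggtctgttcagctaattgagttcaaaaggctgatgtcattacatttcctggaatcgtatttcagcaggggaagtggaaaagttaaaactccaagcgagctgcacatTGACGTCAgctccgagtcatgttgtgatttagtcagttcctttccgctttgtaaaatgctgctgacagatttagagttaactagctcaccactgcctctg
CREB3L2, chr7:138002037-138002336, - strand: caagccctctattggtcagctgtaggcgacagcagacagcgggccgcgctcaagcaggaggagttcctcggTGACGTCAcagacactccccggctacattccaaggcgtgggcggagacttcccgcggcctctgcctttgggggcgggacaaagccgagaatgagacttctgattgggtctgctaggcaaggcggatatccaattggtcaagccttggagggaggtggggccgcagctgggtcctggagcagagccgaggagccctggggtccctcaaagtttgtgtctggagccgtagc
CREB5, a start inside the gene, chr7:28412268-28412567, + strand: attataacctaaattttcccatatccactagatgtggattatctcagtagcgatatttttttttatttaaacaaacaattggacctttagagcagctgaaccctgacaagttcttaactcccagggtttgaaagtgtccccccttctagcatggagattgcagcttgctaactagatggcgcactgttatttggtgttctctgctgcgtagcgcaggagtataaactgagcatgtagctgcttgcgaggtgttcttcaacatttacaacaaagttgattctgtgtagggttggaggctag
In the CREM window the CRE began 50 bases before the annotated start, and in the CREB3L2 window 179 bases before it. CREM is known for a short repressor form, ICER, made from a promoter inside the gene, and counts per gene do not separate it from the longer forms. The 2 genes with a CRE in these windows had different readings, since CREM was higher in R98W and CREB3L2 was not called. Over the table, tested genes with a CRE window were called higher in 21.3% and lower in 26.9% of 461 cases, and those without one in 19.0% and 22.4% of 12231. The median level was 23.4 CPM for genes with a CRE window and 17.6 CPM for those without one. The part of this difference in the called shares was not tested. A match in a window is a description of its letters and not a bound site.

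Library totals ran from 101792328 to 108742650 counts in R98W and from 90007121 to 110152936 counts in WT. KAT8 was measured with 166, 196 and 236 CPM in the R98W libraries and with 12.2, 195 and 184 CPM in the WT ones (replicates 1 to 3 each), so the library labelled WT replicate 1 went against its label. KAT8 had 0.61 on the log2 scale (SE 0.48, edgeR adjusted p = 0.362), and 0.06 without that library (edgeR adjusted p = 0.687). For the 10 family members, and for some of the related genes named, the fold change without that library stands beside the full one. The 6 epithelial markers summed to between 7587 and 8245 CPM (counts scaled to the library total) in R98W and between 8968 and 9163 CPM in WT. The other marker sums use this scale too. On the TMM-scaled totals used for the levels below, the epithelial sums overlapped, at 7979 to 8603 CPM in R98W and 8587 to 8776 CPM in WT. Of the 6 epithelial markers, 1 was called higher by edgeR, 1 lower and 4 not, with a median log2 fold change of -0.05. Under the loess correction for expression level 1 was called higher and 4 lower, with a median of -0.32. The 4 blood cell markers summed to at most 0.216 in R98W and 0.227 in WT, and CD3E was at 0 in all 6 libraries. In the 4 lung markers the sum was at most 0.635 in R98W and 1.22 in WT, so NKX2-1, SFTPB, SFTPC and NAPSA were close to absent. The sums ran up to 0.344 in R98W and 0.822 in WT for 3 endothelial markers, up to 12.5 in R98W and 14.8 in WT for 4 fibroblast markers, and up to 47.2 in R98W and 48.8 in WT for 3 neuronal markers. The part of these differences in the results below was not tested.

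CREB3L3, a CREB3-like gene by name, was not among the 10 and did not pass the filter on low counts. All 10 genes passed it. Of them 5 were called higher in R98W (CREB5, CREB3, ATF1, ATF7 and CREM) and 1 lower (CREB3L4), where called means an edgeR quasi-likelihood p under 0.05 after Benjamini-Hochberg adjustment over all 20713 genes tested. Over all tested genes 34.8% were called, 16.2% higher and 18.5% lower. The median log2 fold change was 0.23 for the 10 genes and -0.0047 for all tested genes. CREB5, whose rise led to the choice of the set, is counted in these figures and in the next ones. They describe the set and lend it no support. The CPM ranges of R98W and WT lay apart for 7 of the 10, the 6 called genes and ATF2, and for 45.6% of all tested genes, 21.3% with R98W above WT and 24.2% with R98W below. In bulk libraries a change in some of the cells and a smaller change in all of them cannot be told apart. Levels are CPM on TMM-scaled library totals, with SD over 3 libraries. Each log2 fold change sets R98W over WT and carries its standard error (SE).

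**Figure D1:**
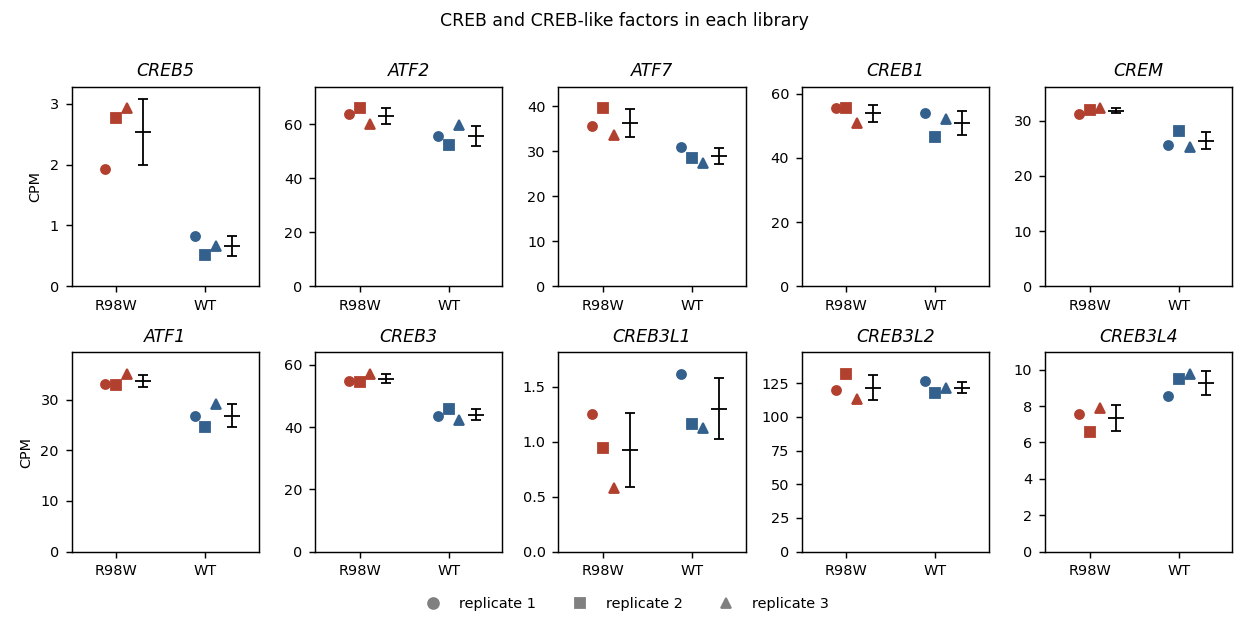
Each panel plots the CPM of 1 gene (vertical axis from 0) in the 3 R98W and the 3 WT libraries, with marker shape for the replicate number and a bar for the mean and SD. CREB5 lies between 1.92 and 2.93 CPM in R98W and between 0.504 and 0.824 CPM in WT, and the groups also lie apart for CREB3, ATF1, ATF7, CREM, ATF2 and, with R98W below WT, CREB3L4.

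CREB5 (ENSG00000146592, chromosome 7, 28299321 to 28825894, + strand, hg38) encodes a CRE-binding factor that pairs with JUN or with itself. It held 1.92, 2.77 and 2.93 CPM in R98W replicates 1 to 3, from 189, 268 and 309 counts. In WT replicates 1 to 3 it held 0.824, 0.504 and 0.653 CPM, from 82, 58 and 62 counts. Every R98W library was above every WT library, and R98W replicate 1 was the lowest of its group. The log2 fold change was 1.95 (SE 0.23), a 3.86-fold higher level, and 2.13 without the library labelled WT replicate 1. It was called in all 14 alternatives, at log2 fold changes between 1.77 and 2.13. These alternatives reuse the libraries in which CREB5 was picked for its rise, so they describe only the dependence on processing. CREB5 stayed weakly expressed in both groups, so its precision rests on these low counts.

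ATF2 (chromosome 2, 175072250 to 175168382), which is phosphorylated by JNK and p38, held 63.7, 65.9 and 59.9 CPM in R98W replicates 1 to 3 and 55.6, 52.2 and 59.6 CPM in WT replicates 1 to 3. The groups lay close together, with the lowest R98W library just above the highest WT library. Its log2 fold change of 0.18 (SE 0.07) was not called, and it was 0.17 without the library labelled WT replicate 1. It was called in 3 of the 14 alternatives, without R98W replicate 3 at 0.22, and by DESeq2 and with DESeq2 size factors in edgeR, both at 0.19. ATF7 (chromosome 12, 53507856 to 53626410), the close relative of ATF2, held 35.6, 39.5 and 33.5 CPM in R98W and 31.0, 28.4 and 27.5 CPM in WT. All R98W libraries were above all WT libraries, and the log2 fold change was 0.32 (SE 0.08), or 0.36 without the library labelled WT replicate 1. ATF7 shares its strand and part of its span with the readthrough gene ATF7-NPFF, so how reads were split between them is uncertain.

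Read per kb of exon, CREB5 made up a small part of this branch. Of the summed level of ATF2, ATF7 and CREB5, CREB5 held 1.05%, 1.42% and 1.69% in the R98W libraries and 0.518%, 0.341% and 0.404% in the WT libraries, in replicate order. The sum itself was 15.7 ± 0.89 CPM per kb in R98W and 13.4 ± 0.62 CPM per kb in WT (SD, n = 3). ATF2 and ATF7 therefore made up nearly all of it in each library.

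CREB1 (chromosome 2, 207529737 to 207603431), the prototype of the family, held 55.5, 55.5 and 50.8 CPM in R98W and 53.9, 46.7 and 52.1 CPM in WT. The groups overlapped, and the log2 fold change of 0.08 (SE 0.07) was not called here or in any of the 14 alternatives, and was 0.12 without the library labelled WT replicate 1. CREM (chromosome 10, 35126791 to 35212958), which yields both activators and repressors, held 31.3, 32.1 and 32.3 CPM in R98W and 25.7, 28.1 and 25.3 CPM in WT. The R98W libraries lay within a narrow band above all WT libraries. The log2 fold change was 0.27 (SE 0.07), or 0.24 without the library labelled WT replicate 1, and the call ended without WT replicate 3, at 0.24. CREM overlaps ENSG00000269952 on its own strand, so how reads were split between them is uncertain. CREB1 overlaps METTL21A on the other strand. ATF1 (chromosome 12, 50763710 to 50821122), the partner of CREB1, held 33.1, 32.9 and 35.1 CPM in R98W and 26.8, 24.6 and 29.2 CPM in WT. Its groups did not overlap, the log2 fold change was 0.33 (SE 0.08), or 0.32 without the library labelled WT replicate 1, and it was called in all 14 alternatives. Per exon length the 3 genes together stood at 23.3 ± 0.23 CPM per kb in R98W and 19.6 ± 0.88 CPM per kb in WT (SD, n = 3).

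Among the membrane-bound factors CREB3 was higher and CREB3L4 lower in R98W. CREB3 (chromosome 9, 35732335 to 35737004), also called Luman, held 54.9, 54.6 and 57.2 CPM in R98W and 43.7, 45.9 and 42.3 CPM in WT. The groups lay well apart, the log2 fold change was 0.34 (SE 0.07), and 0.32 without the library labelled WT replicate 1. CREB3 overlaps TLN1 and GBA2 on the other strand, and the strand setting of the counting is not given in the sources used here. CREB3L4 (chromosome 1, 153967534 to 153974363), known from prostate and other secretory epithelia, held 7.58, 6.56 and 7.91 CPM in R98W and 8.55, 9.50 and 9.78 CPM in WT. Every R98W library was below every WT library, with a log2 fold change of -0.34 (SE 0.11), or -0.40 without the library labelled WT replicate 1. Its call ended without R98W replicate 2, at -0.26, without WT replicate 3, at -0.31, and under the loess correction for expression level, at -0.24. It overlaps JTB and SLC39A1 on the other strand.

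CREB3L2 (chromosome 7, 137874979 to 138002067), a regulator of secretory load in cartilage, was the member with the most reads and had the same mean in both groups. It held 120, 132 and 113 CPM in R98W and 126, 118 and 121 CPM in WT. The groups overlapped, with means of 122 ± 9.5 CPM in R98W and 122 ± 4.3 CPM in WT (SD, n = 3), and a log2 fold change of -0.00 (SE 0.07), which was 0.02 without the library labelled WT replicate 1. CREB3L1 (chromosome 11, 46277661 to 46321422), known for collagen secretion in bone, was among the lowest, with 1.25, 0.940 and 0.578 CPM in R98W and 1.62, 1.16 and 1.13 CPM in WT. These values came from 123, 91 and 61 counts in R98W and 161, 133 and 107 counts in WT, and R98W replicate 1 lay within the WT range. The log2 fold change of -0.50 (SE 0.26) was not called. Without R98W replicate 1 it was called, at -0.78, and once the library labelled WT replicate 1 was set aside it was -0.32, not called.

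**Figure D2:**
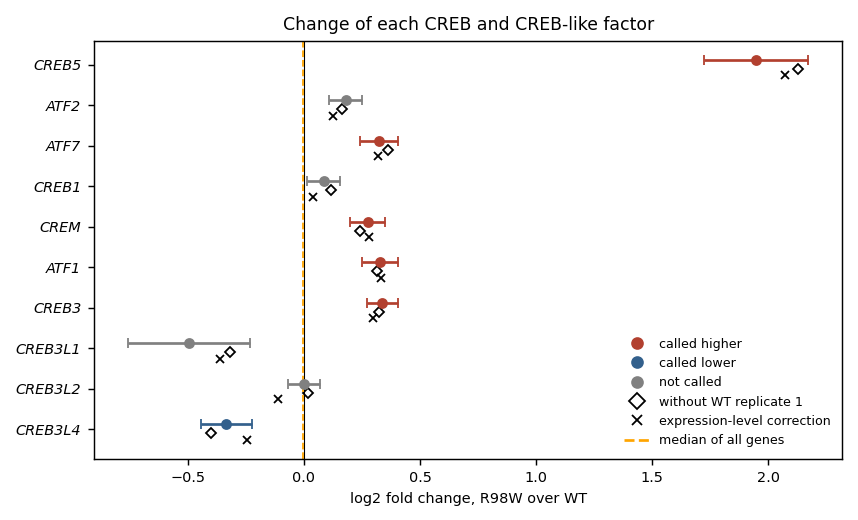
Log2 fold change of R98W over WT (horizontal axis) for each gene, with the SE as a bar, the value without the library labelled WT replicate 1 as a diamond and the value after the correction for expression level as a cross. CREB5, at 1.95, lies far to the right of the others, which run from -0.50 to 0.34, and the dashed line at -0.0047 is the median of all genes.

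Levels of different genes were compared per kb of union exon length. CREB3 was the most abundant, at 29.2 ± 0.72 CPM per kb in R98W and 23.1 ± 0.95 CPM per kb in WT (SD, n = 3). CREB3L2 followed with 13.9 ± 1.1 in R98W and 13.9 ± 0.49 in WT, then ATF1 at 12.1 ± 0.45 in R98W and 9.63 ± 0.83 in WT, and ATF2 at 10.98 ± 0.52 in R98W and 9.70 ± 0.64 in WT. CREB1, CREM, ATF7 and CREB3L4 came next, between 5.63 and 2.53 CPM per kb in the R98W means and between 5.31 and 3.19 in the WT means. The lowest were CREB3L1, at 0.229 ± 0.084 in R98W and 0.322 ± 0.068 in WT, and CREB5, at 0.218 ± 0.046 in R98W and 0.0566 ± 0.014 in WT. The ranges of CREB1 and CREM overlapped in both groups. Those of ATF1 and ATF2 overlapped in WT but not in R98W, and those of CREB3L1 and CREB5 in R98W but not in WT. All other neighbours in this order were apart in both groups. The summed level of the 10 genes was 84.9 ± 1.1 CPM per kb in R98W and 73.4 ± 0.92 CPM per kb in WT. The CREB3 branch held 53.9%, 53.7% and 54.4% of it in R98W replicates 1 to 3 and 54.9%, 56.8% and 53.7% in WT replicates 1 to 3. Union exon length counts every annotated exon, so a gene used mainly in a short form is placed too low on this scale.

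**Figure D3:**
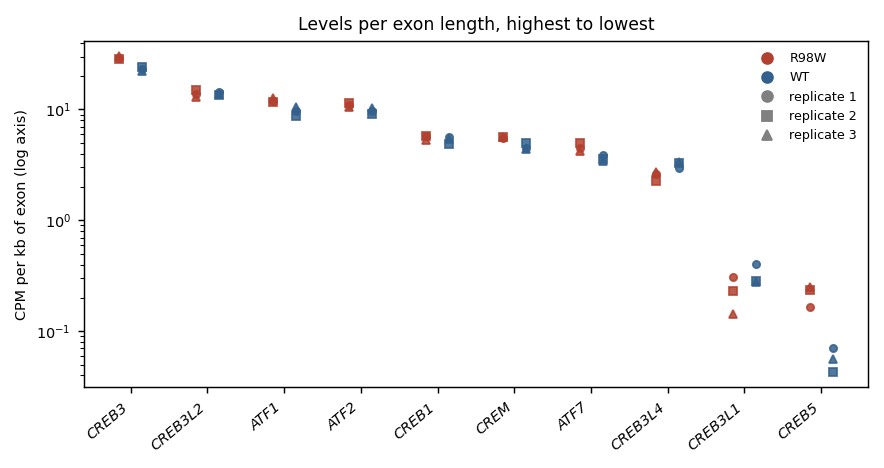
CPM per kb of union exon (vertical log axis) of each gene in each library, R98W left of WT, with marker shape for the replicate number and genes ordered by their mean over the 6 libraries. CREB3 is at the top at 22.2 to 30.0 and CREB5 at the bottom at 0.0432 to 0.251 CPM per kb.

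Among the genes whose log2 CPM over the 6 libraries followed CREB5 most closely, out of 12158 tested protein-coding genes averaging 1 CPM or more, were RTL8A (Pearson r = 0.9991), RHOA (0.998), LIAS (0.996), TGFA (0.995) and JMJD8 (0.995). TGFA, a ligand of the EGF receptor, held 19.3, 21.1 and 21.8 CPM in R98W and 15.5, 13.1 and 14.9 CPM in WT. Likeness of pattern here is not likeness of size, since the log2 fold changes of these 5 genes ran from 0.22 to 0.52. RTL8A has near-identical copies and is uncertain, and its call ended without R98W replicate 2, WT replicate 2 or WT replicate 3, at 0.21, 0.19 and 0.22. For RHOA the call ended under the loess correction, at 0.04, while LIAS overlaps RPL9 and JMJD8 overlaps STUB1 on the other strand. An r above 0.9 was reached by 1667 of the candidates, which share the same libraries and the same group difference. Among the other family members r with CREB5 ran from -0.88 for CREB3L4 to 0.93 for ATF1.

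Genes that overlap a member, such as TLN1 and GBA2 at CREB3, were passed over in the search for neighbours. The nearest other tested protein-coding genes on either side of each member numbered 20, and 2 of them were called higher and 3 lower. Over all tested genes 16.2% were called higher and 18.5% lower. These neighbours were looked up after the values of the members were known. CREB5 lies between JAZF1 and CPVL, which were not called. JAZF1, a zinc finger gene 119 kb away, averaged 5.71 ± 0.65 CPM in R98W and 5.20 ± 0.26 CPM in WT, and CPVL, 169 kb away, averaged 0.555 ± 0.14 CPM in R98W and 0.903 ± 0.12 CPM in WT (SD, n = 3). The called neighbours were CCNYL1 beside CREB1 and ATP5MC3 beside ATF2, both higher, and CUL2 beside CREM, RGP1 beside CREB3 and RAB13 beside CREB3L4, all lower.

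Around the family, 7 lists of related genes held 130 tested genes, of which 35 were called higher and 22 lower. That is 43.8% called, against 34.8% of all tested genes, 16.2% higher and 18.5% lower. The called share was 32% for the CREB kinase list, which also holds inhibitors and anchoring proteins of protein kinase A. It was 33.3% for the coactivators and 38.5% for the cAMP genes. It was 47.1% for the CREB3 list, 48.4% for the CREB targets and 50% for the relatives. It was 56.3% for the stress kinase list, which also holds phosphatases and JUN genes. No list was tested as a set. Among 12 tested relatives with a similar DNA-binding region, 3 were higher and 3 lower, with a median log2 fold change of -0.07. ATF3, the stress-induced relative, averaged 12.8 ± 0.85 CPM in R98W and 5.12 ± 0.41 CPM in WT (SD, n = 3), or 1.32 on the log2 scale (SE 0.11, edgeR adjusted p = 3.49e-08). CREBZF, a partner that restrains CREB3, had 0.47 (SE 0.09, edgeR adjusted p = 0.000343). ATF6, another factor released from the endoplasmic reticulum by the same proteases, averaged 53.3 ± 4.8 CPM in R98W and 76.2 ± 4.6 CPM in WT, or -0.52 on the log2 scale (SE 0.08, edgeR adjusted p = 3.08e-05). BATF2 averaged 0.454 ± 0.079 CPM in R98W and 1.27 ± 0.33 CPM in WT. Without the library labelled WT replicate 1 the list had 4 higher and 3 lower, with ATF3 at 1.33, CREBZF at 0.57, ATF6 at -0.58 and BATF2 at -1.63.

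Genes that make and break down cAMP held 5 higher and 5 lower among 26 tested, with a median log2 fold change of -0.07. The adenylyl cyclase ADCY3 averaged 40.2 ± 0.98 CPM in R98W and 61.5 ± 3.2 CPM in WT (SD, n = 3), with -0.62 (SE 0.07, edgeR adjusted p = 1.5e-06), and it overlaps CENPO on the other strand. The phosphodiesterases went both ways, with PDE3B at 0.48 and PDE7A at 0.31, and PDE4A at -0.71 on the log2 scale, all past the edgeR threshold. PDE4A overlaps CDC37, and PDE7A overlaps MTFR1, on the other strand. The higher count fell to 3 without R98W replicate 1, R98W replicate 2, WT replicate 2 or WT replicate 3. The lower count was 3 without R98W replicate 3, 9 without WT replicate 2 and 8 with a filter of at least 50 counts. Once the library labelled WT replicate 1 was set aside, 7 were higher and 5 lower, with ADCY3 at -0.67.

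Of 25 genes of protein kinase A, its inhibitors and anchoring proteins, and other CREB kinases, 5 were higher and 3 lower, with a median of 0.07. The anchors AKAP9 and AKAP10 were among the higher genes, and no anchor was called lower. PKIG, an inhibitor of protein kinase A, averaged 4.87 ± 0.29 CPM in R98W and 12.8 ± 1.4 CPM in WT (SD, n = 3), or -1.40 on the log2 scale (SE 0.11, edgeR adjusted p = 2.76e-08), and overlaps ADA on the other strand. The calmodulin kinases went opposite ways, CAMK2D at 0.40 and CAMK1 at -0.96, and the regulatory subunit PRKAR2A had 0.29. CAMK1 overlaps OGG1, and PRKAR2A overlaps PRKAR2A-AS1, on the other strand. The higher count was 2 without R98W replicate 1, R98W replicate 2 or WT replicate 3, and 3 under upper quartile scaling and under the loess correction. Without the library labelled WT replicate 1 it was 5, with PKIG at -1.49. Among 9 tested coactivator genes and kinases that hold the CRTC proteins in check, 1 was higher and 2 were lower. SIK3 was higher (log2 fold change 0.34, SE 0.08, edgeR adjusted p = 0.00139), and CRTC3 averaged 35.2 ± 0.76 CPM in R98W and 42.7 ± 1.8 CPM in WT (-0.28, edgeR adjusted p = 0.00391). SIK2 had -0.24, and its call ended without R98W replicate 3, at -0.19. On the other strand SIK2 overlaps PPP2R1B and CRTC3 overlaps CRTC3-AS1. SIK1, which has a near-identical copy in the genome and is uncertain, was not called. CREBBP and EP300, the acetyltransferases that bind phosphorylated CREB1, had -0.03 (SE 0.08) and -0.07 (SE 0.07) and were not called.

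The list of stress kinases upstream of ATF2 and ATF7 also holds the phosphatases DUSP10 and DUSP16 and the JUN partners of these factors. It had 5 higher and 4 lower genes among 16, with a median of 0.10. Among the called genes that are not kinases, DUSP10 and JUN were higher and DUSP16 and JUNB lower. The p38 activators MAP2K6 and MAP2K3 were called, in opposite directions. MAP2K6 averaged 37.6 ± 3.5 CPM in R98W and 62.5 ± 3.1 CPM in WT (SD, n = 3), with -0.73 (SE 0.08, edgeR adjusted p = 7.34e-07), and MAP2K3 averaged 65.3 ± 4.5 CPM in R98W and 49.5 ± 2.2 CPM in WT, with 0.40 (SE 0.07, edgeR adjusted p = 0.000209). The p38 kinase MAPK14 had 0.24, and its call ended without WT replicate 3, at 0.21. JUNB had -0.53 (SE 0.08, edgeR adjusted p = 6.33e-05) and overlaps HOOK2 on the other strand. JUN itself went the other way, at 0.30 (SE 0.11, edgeR adjusted p = 0.0367), although the CPM ranges of its groups overlapped. It had 0.40 without the library labelled WT replicate 1. JUND had 0.05 (SE 0.07) and was not called. The higher count was 3 without R98W replicate 3, 2 without WT replicate 2 and 1 without WT replicate 3, and the counts did not change without the library labelled WT replicate 1, with MAP2K6 at -0.77, MAP2K3 at 0.42 and JUNB at -0.48.

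Of 31 tested CREB targets known from textbooks, 12 were higher and 3 lower, with a median log2 fold change of 0.17, against -0.0047 over all tested genes. Besides ATF3 and JUNB, which stand in other lists too, the clock gene PER2 averaged 31.3 ± 0.44 CPM in R98W and 23.2 ± 2.5 CPM in WT (SD, n = 3), with 0.43 (SE 0.08, edgeR adjusted p = 0.000428). MCL1, an inhibitor of apoptosis, had 0.29 (edgeR adjusted p = 0.00188), a call that ended after the correction for expression level, at 0.13. Besides JUNB, the lower ones were NR4A1 (-0.29) and BDNF (-0.35), and 6 targets, among them SST, VIP and TH, were too low to be tested. BDNF overlaps BDNF-AS on the other strand. The higher count was 7 without R98W replicate 1, R98W replicate 3 or WT replicate 2, and 9 were higher and 4 lower once the library labelled WT replicate 1 was set aside, with PER2 at 0.51. After the correction for expression level 12 were higher and 7 lower. Of the 37 CREB targets listed, tested or not, 28 had a promoter window and 7 of these held a CRE. The CRE share was 2.25% of all genes with windows and 3.63% of the tested ones. The presence of a CRE may have helped to name these textbook targets, so their share only describes the list.

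Genes that process the CREB3 factors or serve as their secretory targets held 5 higher and 3 lower genes among 17, with a median of 0.08. ARF4, a Golgi GTPase known as a CREB3 target, averaged 212 ± 6.6 CPM in R98W and 147 ± 1.95 CPM in WT (SD, n = 3), with 0.53 (SE 0.06, edgeR adjusted p = 2.69e-06). SEC31A of the COPII coat averaged 228 ± 10 CPM in R98W and 158 ± 13 CPM in WT, with 0.53 (SE 0.07, edgeR adjusted p = 1e-05), and overlaps THAP9 on the other strand. TM4SF20, a membrane protein that controls the cleavage of CREB3L1, averaged 191 ± 37 CPM in R98W and 306 ± 12 CPM in WT, with -0.68 (SE 0.10, edgeR adjusted p = 2.68e-05). KDELR3 had -0.46 and overlaps DDX17 on the other strand. The proteases MBTPS1 and MBTPS2 were not called, with -0.12 (SE 0.07) and 0.12 (SE 0.07), and MBTPS1 was called under the loess correction, at -0.25. The higher count was 3 without R98W replicate 2 and under the loess correction, and 4 without the library labelled WT replicate 1, with ARF4 at 0.53, SEC31A at 0.59 and TM4SF20 at -0.71.

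**Figure D4:**
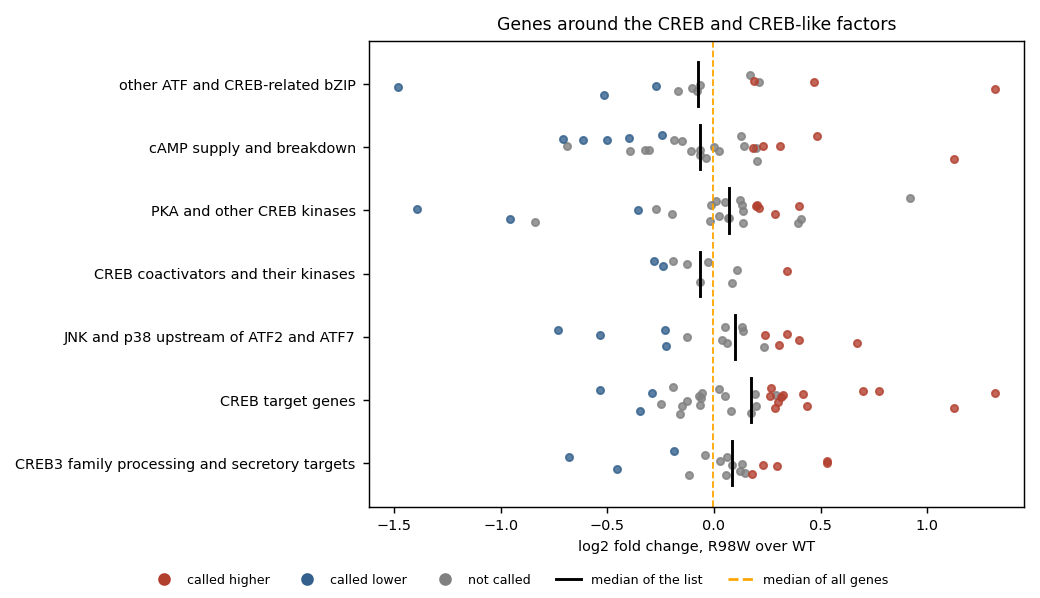
Log2 fold change of R98W over WT (horizontal axis) for each tested gene of the 7 lists, coloured by its edgeR call, with the median of each list as a black bar and the median of all genes as a dashed line. List medians run from -0.07 for the relatives, the cAMP genes and the coactivators to 0.17 for the CREB targets, and every list holds genes on both sides.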

How the data were processed

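The deposited table holds raw read counts per gene for 6 libraries, which the authors did not normalise. CASAVA 1.8, HISAT2 2.1.0, HTSeq 0.11.3 and the build hg38 are named in the submitters' processing notes without a role. The sources used here give no annotation, strand setting or read filter. All 58721 rows matched GENCODE release 29, which gave positions and union exon lengths.

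Counts were filtered with filterByExpr (minimum count 10, minimum total 15), scaled by TMM and tested with edgeR 4.0.16 in R 4.3.3 by the quasi-likelihood test without covariates, with Benjamini-Hochberg adjustment over 20713 genes and a threshold of 0.05. Alternatives, 14 in all, were other scalings and filters, limma-voom (limma 3.58.1), DESeq2 1.42.0, a loess correction for expression level with a span of 0.5, the replicate number as a block, and each library left out. The pipeline was tested on simulated data. Replicates of a group differed beyond counting noise. Members, lists and tests were chosen with earlier results of these data known. Named genes were KAT8, the 10 members, the 4 smallest p in each list and the 6 genes most correlated with CREB5, of which 1 is not reported here. CREBBP, EP300, MBTPS1, MBTPS2, NR4A1, BDNF and the neighbouring genes lie outside this rule and were named after their values were seen. The same holds for JUN, JUND, DUSP10, DUSP16, AKAP9 and AKAP10. Promoter windows are from RefSeq. The precision of a level rests on its counts, and no interval covers more than the spread of 3 libraries.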

Additional observations from a re-analysis of the deposited data

How the results depend on the processing

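Of the 10 genes, 5 were called higher and 1 lower by edgeR. Over the 14 alternatives the higher count was 4 to 6 and the lower count 0 to 2. The lower count was 0 after the correction for expression level, where 1 gene had an unadjusted p under 0.05, and 1 by DESeq2. With 1 library left out it ran from 0 to 2, the higher count from 4 to 6, the higher count over the 7 lists from 22 to 34 and the lower from 18 to 27. Over all tested genes, with 1 library left out, 2340 to 3268 were higher and 3060 to 3944 lower. No call of a named gene, with JUN, JUND, DUSP10, DUSP16, AKAP9 and AKAP10 left aside, changed direction in the alternatives run. Depth limits CREB5 and CREB3L1 most, which rest on at most 309 counts per library.

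Same-numbered libraries did not deviate together, with correlations of 0.0056, -0.039 and -0.037, so the numbers were not treated as pairs. With the replicate block, 5 of the 10 genes were higher and 1 lower, as without it. For each number, some pair of R98W and WT libraries with different numbers correlated more.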
